A study of Mus musculus with 4 samples.

Results

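The comparison described here sets the lung miRNAs of adult mice kept in 95% oxygen (hyperoxia) against those of adult mice kept in room air. It rests on 381 of the 750 miRNA wells of each library, those whose threshold cycle (Ct) did not exceed 30 in either adult library. The study profiled lung RNA of newborn and adult mice after 72 h in either atmosphere, with 1 library per group and 4 libraries in all. Both adult groups were 2 months old, and the neonatal groups, used here only for a side-by-side reading, were sampled at day 3. RNA came from the whole right lung, excised once blood had been flushed out through the pulmonary artery. The labels name no strain, sex or genotype, and do not give the number of animals behind a library. With 1 library on each side there is no replicate error and no test. Every difference below compares those libraries.

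Each miRNA was read by its own quantitative PCR assay in a well of a card, 384 wells to a card and 2 cards to a library. The Ct is the cycle at which the signal crosses a threshold, so a lower Ct means more RNA, and 1 cycle is 1 log2 unit at perfect amplification. A level is the Ct of snoRNA202, a small nucleolar RNA read on the same card, minus the Ct of the assay. A difference is the level in hyperoxia minus the level in room air, in log2 units, and a size of 1 or more (2-fold) is called. Of the compared assays, the first card holds 219 and the second 162. By the deposited annotation, 339 of them are mouse miRNAs, 41 are rat miRNAs and 1 is human. Of the 727 miRNA wells outside the excluded row L of the first card, 253 had a Ct above 35 in both adult libraries 4 crossed from 30 or below to above 35, and 89 others were over the limit in 1 or both.

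A miRNA is a short RNA cut from a hairpin precursor, from which either arm (5p or 3p) can be loaded into an Argonaute protein. Bases 2 to 8, the seed, pair with target messenger RNAs, so that miRNAs with 1 seed form a family with overlapping targets. Several hairpins can lie on 1 primary transcript and are then called a cluster. Prolonged breathing of nearly pure oxygen injures the alveolar epithelium and the capillary endothelium of the lung through reactive oxygen species, and adult rodents tolerate it poorly.

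The families in which a member was called are shown first, because the members differ little in sequence and yet differed in the size of their change, and in 1 pair in its direction. Sequences are mature mouse miRNAs from RefSeq (GRCm38.p6), 5′ to 3′, with the seed in capitals. The miR-29 family, whose known targets include collagens and other matrix proteins, holds 3 members with 1 seed.
miR-29a-3p: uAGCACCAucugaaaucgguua
miR-29b-3p: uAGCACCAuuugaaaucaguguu
miR-29c-3p: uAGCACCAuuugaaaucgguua
The let-7 family, which restrains growth-promoting genes such as Ras genes and Hmga2, holds 9 listed members.
let-7a-5p: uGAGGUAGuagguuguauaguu
let-7b-5p: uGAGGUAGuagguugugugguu
let-7c-5p: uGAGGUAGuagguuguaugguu
let-7d-5p: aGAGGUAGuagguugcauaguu
let-7e-5p: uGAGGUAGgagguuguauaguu
let-7f-5p: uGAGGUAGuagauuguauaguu
let-7g-5p: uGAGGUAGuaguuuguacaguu
let-7i-5p: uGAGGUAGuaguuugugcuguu
miR-98-5p: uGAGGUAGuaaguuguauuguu
The miR-200 family, which keeps epithelial identity by repressing Zeb1 and Zeb2, carries a pair of seeds.
miR-200b-3p: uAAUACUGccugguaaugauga
miR-200c-3p: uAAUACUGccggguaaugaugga
miR-429-3p: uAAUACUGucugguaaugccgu
miR-200a-3p: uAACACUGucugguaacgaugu
miR-141-3p: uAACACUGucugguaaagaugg
The remaining pairs with 1 seed and a called member are miR-103 with miR-107, miR-7a with miR-7b, and miR-28 with miR-708, whose differences have opposite signs.
miR-103-3p: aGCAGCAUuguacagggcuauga
miR-107-3p: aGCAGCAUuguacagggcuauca
miR-7a-5p: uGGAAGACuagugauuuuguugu
miR-7b-5p: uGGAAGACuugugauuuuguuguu
miR-28a-5p: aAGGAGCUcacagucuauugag
miR-708-5p: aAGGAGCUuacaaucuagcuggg

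The called miRNAs outside these families, with the other arm or cluster neighbour they are set against below, are printed for the same purpose.
miR-23a-3p: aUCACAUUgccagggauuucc
miR-27a-3p: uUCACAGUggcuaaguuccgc
miR-423-3p: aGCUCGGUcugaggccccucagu
miR-345-5p: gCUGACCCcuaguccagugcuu
miR-381-3p: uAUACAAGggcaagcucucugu
miR-326-3p: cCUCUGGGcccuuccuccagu
miR-433-3p: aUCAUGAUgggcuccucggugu
miR-431-5p: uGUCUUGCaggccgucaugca
miR-342-5p: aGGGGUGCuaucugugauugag
miR-342-3p: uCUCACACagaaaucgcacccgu
A mature RefSeq sequence was found for 257 of the 339 mouse-annotated assays compared. Of the other called assays, miR-682 and miR-706 also matched, and miR-124, miR-1944, miR-1971, miR-2138, miR-297a* and the rat-annotated miR-547 did not.

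Most adult lung miRNAs differed by less than 2-fold between the libraries. Of the 381 assays, 282 (74%) lay within 0.5 log2 units of 0, and 308 (80.8%) within 0.5 of the median difference. The median itself was -0.23, with -0.30 for the wells of card 1 and -0.15 for those of card 2, so a typical miRNA read slightly lower in hyperoxia relative to snoRNA202. In all, 281 assays were below 0 and 100 above it. The Ct of snoRNA202 was 13.4 in room air and 12.8 in hyperoxia on the first card, and 13.7 and 13.8 on the second, so that the reference read earlier in hyperoxia on the first card only. The other small RNAs gave differences of -0.25 and -0.04 (U6), -0.51 and -0.09 (snoRNA135), -0.65 and 0.04 (U87) and -0.01 and -0.44 (Y1), card 1 before card 2. The gaps between the cards in these 4 RNAs correspond to a standard deviation of 0.33 for 1 difference, which leaves out any shift that both cards share.

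At 2-fold, 22 of the 381 assays were called (5.77%), of which 6 were higher in hyperoxia (1.57%) and 16 were lower (4.2%). The first card held 14 of them (6.39%), 3 higher (1.37%) and 11 lower (5.02%), and the second held 8 (4.94%), 3 higher (1.85%) and 5 lower (3.09%). The split moves with the reference. Setting each card on its median Ct gave 12 higher and 9 lower, and moved the median of all assays to 0.19. With snoRNA135 as the reference the counts were 10 and 10, with a median of 0.10. Under all 8 references and centrings tried, 14 assays passed 2-fold in 1 direction, 9 of them lower and 5 higher. The 9 lower ones were miR-29b, miR-23a, miR-7a, miR-2138, miR-381, miR-423-3p, miR-345-5p, miR-326 and miR-1971. The 5 higher ones were miR-124, miR-433, the rat-annotated miR-547, miR-1944 and miR-342-5p. The remaining 8 calls, miR-200c, miR-706, let-7e, miR-98, miR-682, miR-28, miR-107 and miR-297a*, passed under 2 to 7 of the 8. The 8 include the authors' deposited values, which for let-7e, miR-98, miR-682, miR-28 and miR-107 equal the snoRNA202 values used here. Those calls passed under these 2 alone, and so under 1 distinct reference.

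**Figure D1:**
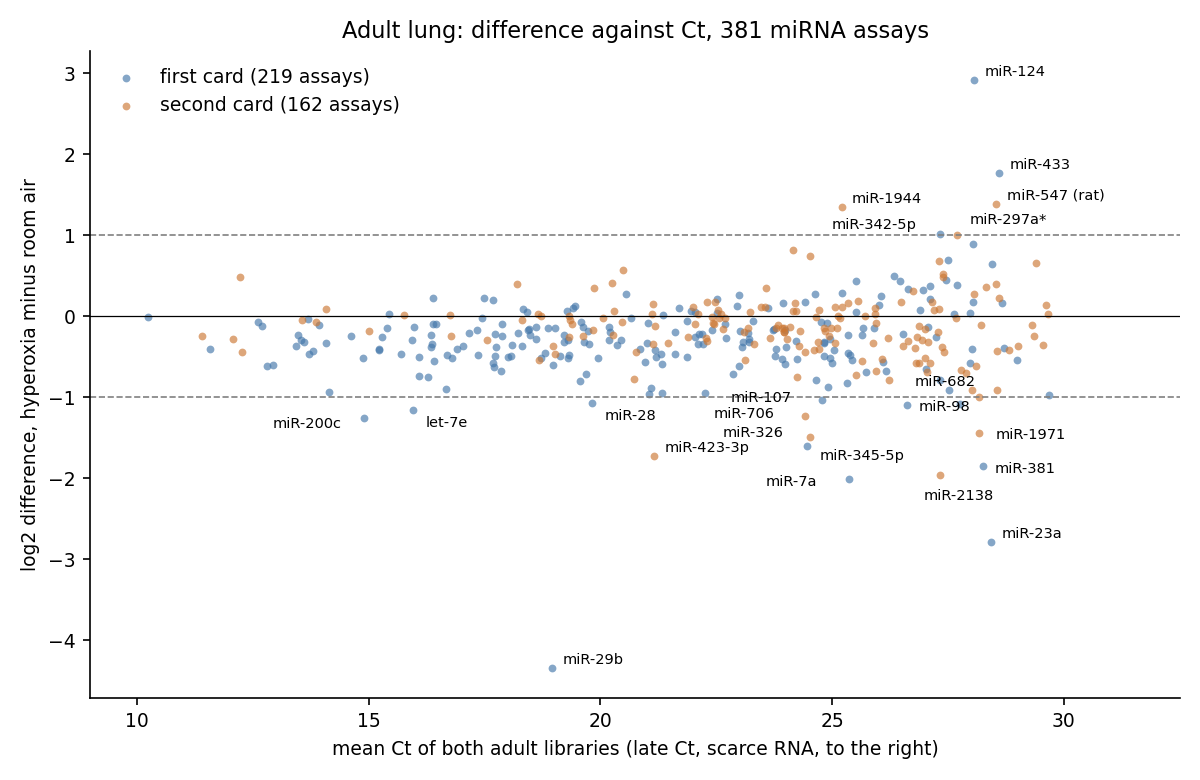
Each point is 1 of the 381 assays, plotted by its mean Ct in both adult libraries (horizontal) and its log2 difference, hyperoxia minus room air (vertical); colours give the card and dashed lines mark 2-fold. The 22 called assays are named, miR-29b lies apart at -4.35, and the assays above the upper line all have a mean Ct of 24 or later.

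The earliest assays differed little. The earliest assay was miR-126, an endothelial miRNA, at Ct 10.5 in room air and 9.96 in hyperoxia, a difference of -0.01. Of the 15 earliest assays none reached 2-fold, where 5.77% of all assays did. Their differences ran from -0.62 (miR-146a) to 0.48 (the rat-annotated assay of miR-223). The others in that group were miR-1937b, miR-24, miR-1937c, miR-2134, miR-126-5p, miR-30c, miR-30b, miR-222, miR-191, miR-29a, the rat-annotated assay of miR-200c and miR-16. Ct order between assays also carries each assay's efficiency, and sets no miRNA above another in copies.

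The spread of differences was widest among late assays. In the 37 assays with a mean Ct below 16 it was 0.33 (SD across assays) and 2 were called (5.41%). That share is near the 5.77% over all assays. Between 16 and 20, a range that holds miR-29b at -4.35, it was 0.53 (quartiles -0.49 and -0.10), with 2 of 82 called (2.44%). In the 103 assays between 20 and 24 it was 0.32 and 1 was called (0.971%). Between 24 and 27 it was 0.50, with 1 higher and 6 lower among 93 (7.53%). In the 66 assays between 27 and 30 it was 0.85, with 5 higher and 5 lower (15.2%). All 6 calls that were higher lay above Ct 24. Among the 249 assays that stayed at Ct 25 or earlier in each library, 6 were called and all were lower: miR-29b, miR-423-3p, miR-345-5p, miR-200c, let-7e and miR-28.

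Among the 381 compared assays, miR-29b stood far from every other, though some assays outside this set, given below, dropped further. Its Ct was 17.1 in room air and 20.8 in hyperoxia, and its level went from -3.648 to -7.998, a difference of -4.35 (20.4-fold lower). The relatives printed above with the same seed did not follow: miR-29a had Ct 13.7 and 13.4 (difference -0.30), and miR-29c had Ct 16.1 and 15.8 (difference -0.29). Both values are near the median of all assays.

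The miR-29b mature RNA is encoded at 2 loci, chr6:31063025-31063047 (minus strand, Mir29b-1, beside Mir29a) and chr1:195037091-195037113 (plus strand, Mir29b-2, beside Mir29c and within the span of the long noncoding RNA gene A330023F24Rik). The other arms of these hairpins were also read. miR-29b* had Ct 24.7 in both libraries (difference 0.08), miR-29a* had a difference of -0.11 and miR-29c* one of -0.13. The rat-annotated assay miR-29b-2* was late, at Ct 30.4 in room air and 28.9 in hyperoxia, a difference of 1.57 in the opposite direction. No other compared assay reads the guide arm of miR-29b. In the neonatal libraries the same assay had Ct 24.9 and 25.3, so that the adult room air library held the earliest of its 4 readings.

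miR-23a was next, at Ct 27.3 in room air and 29.5 in hyperoxia, a difference of -2.79 (6.91-fold lower). It lies at chr8:84208563-84208583 (plus strand) on 1 primary transcript with miR-27a and miR-24-2, a cluster expressed in endothelial and other lung cells. Its neighbours differed by far less: miR-27a gave -0.50, miR-24, which is also made from a locus on another chromosome, gave -0.41, miR-24-2* gave -0.05 and miR-27a* gave 0.41. Its close relative miR-23b, an early assay at Ct 19.9 and 19.6, gave -0.35.

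miR-7a, a miRNA of neurons and neuroendocrine cells that represses Egfr, had Ct 24.7 and 26.1, a difference of -2.02 (4.04-fold lower). It is encoded at chr13:58392841-58392863, within the span of Hnrnpk, and at chr7:78888295-78888317. miR-7b, with the same seed, had Ct 26.7 and 26.3 (difference -0.22). The passenger arm miR-7a*, read by a mouse- and a rat-annotated assay, gave 0.03 and -0.001.

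miR-423-3p was the only second-card call at Ct 25 or earlier, with Ct 20.2 in room air and 22.1 in hyperoxia (difference -1.73, 3.31-fold lower). Its hairpin lies at chr11:77078086-77078108 (mature arm, minus strand), within the span of Nsrp1. The 5p arm of the same hairpin went the other way at late cycles, from Ct 33.2 to 29.8, a difference of 2.75 that is outside the compared set.

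miR-326 (chr7:99552328-99552348, within the span of Arrb1) had Ct 23.7 and 25.3, a difference of -1.497. No second assay and no other arm of it was compared. miR-2138 had Ct 26.3 and 28.4 (difference -1.96), and miR-1971 had Ct 27.4 and 28.9 (difference -1.44). These last are names of the assay's annotation release, and are given as such.

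miR-381 and miR-345-5p were each read by a second assay that did not repeat the size. miR-381 (chr12:109726870-109726891), a miRNA of the imprinted Dlk1-Dio3 region, had Ct 27.6 and 28.9 in the mouse-annotated assay (difference -1.86). The rat-annotated assay read it earlier, at Ct 24.99 and 24.92, with a difference of -0.52. miR-345-5p (chr12:108836989-108837010) had Ct 23.96 and 24.96 in the mouse-annotated assay (difference -1.60) and 24.3 and 24.9 in the rat-annotated assay (difference -0.42). All 4 readings were below 0, as were 281 of the 381 assays. With each card set on its median difference, the rat-annotated ones were at -0.224 (miR-381) and -0.275 (miR-345-5p). The mouse-annotated assays of miR-345-5p and miR-345-3p held identical Ct values in both neonatal libraries, but not in the adult ones.

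Of the assays that were higher in hyperoxia, miR-124 had the largest difference. It is a miRNA of neurons, and it was read late, at Ct 29.8 in room air and 26.3 in hyperoxia (difference 2.91, 7.53-fold higher). The other miRNAs listed for brain did not share it: miR-137 gave 0.65, miR-128a -0.23, miR-9 -0.45 and miR-7a -2.02. miR-122, the defining miRNA of hepatocytes, also read earlier in hyperoxia, at Ct 28.3 against 32.8, a difference of 3.95 outside the compared set. Whether RNA of other tissues has a part in these readings was not tested.

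miR-433 had Ct 29.8 in room air and 27.4 in hyperoxia (difference 1.77, 3.41-fold higher). It lies at chr12:109591781-109591802 within the span of Rtl1, to which it is antisense, and beside it miR-431 (chr12:109590459-109590479) had Ct 28.8 and 27.3, a difference of 0.88 just short of 2-fold. The other 7 assays of that stretch ran from -0.79 (miR-337-5p) to 0.38 (miR-434-5p), with miR-127 at 0.02, miR-337-3p at 0.04, miR-673-5p at -0.03, miR-434-3p at -0.06 and miR-136 at -0.28. miR-433 was at Ct 20.9 and 20.4 in the neonatal libraries, and so was much scarcer in both adult ones.

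miR-342-5p, encoded within the span of Evl (chr12:108658638-108658659), had Ct 28.1 and 26.5 (difference 1.02, 2.03-fold higher). Its 3p arm was far earlier, at Ct 17.9 and 17.1, with a difference of 0.23. miR-1944 had Ct 25.8 and 24.6 (difference 1.34). The rat-annotated assay of miR-547 had Ct 29.2 and 27.9 (difference 1.39), against 24.9 and 24.8 (difference -0.50) in the mouse-annotated assay. miR-297a*, an assay shared by 3 repeat-derived miRNAs, gave 1.00.

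**Figure D2:**
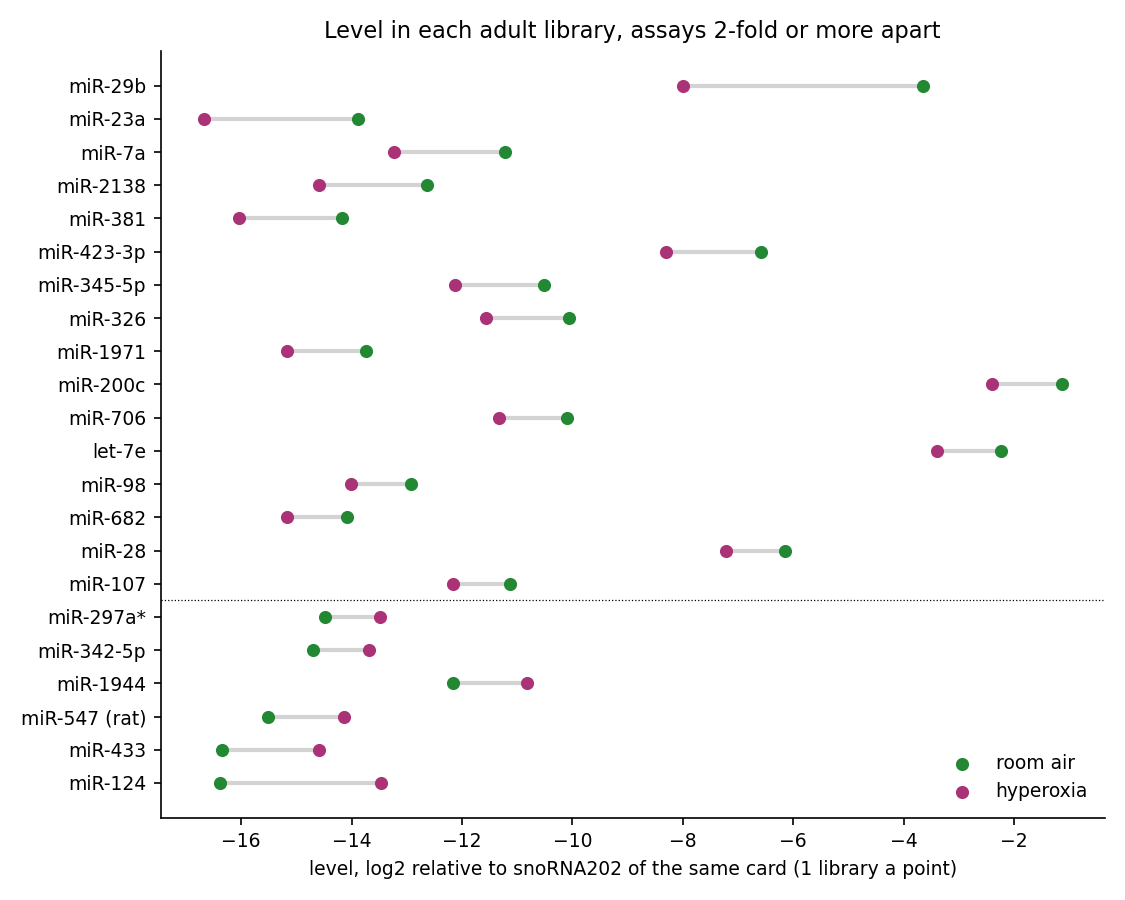
Levels of the 22 called assays in each adult library, in log2 units relative to snoRNA202 of the same card; green is room air, purple is hyperoxia, and each point is 1 library. The 16 assays above the dotted line are lower in hyperoxia and the 6 below it are higher; miR-29b spans the widest gap, and the higher ones all lie at levels below -10.

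The let-7 seed was the largest of 33 seed families and the only one with more than 1 called assay. It had 2 calls among 10 assays, where 5.77% of all assays were called. Besides the listed members its 10 assays include miR-1961, at 0.22. All 9 listed members were compared, all read lower in hyperoxia, and their median was -0.80 against -0.23 over all assays. let-7e (chr17:17830366-17830387) had Ct 15.7 in room air and 16.2 in hyperoxia (difference -1.16). miR-98 (chrX:151913229-151913250) had Ct 26.4 and 26.9 (difference -1.10), and let-7f followed at -0.95.

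The family was not uniform. let-7g gave -0.90, let-7a -0.80, let-7c -0.74 and let-7d -0.48, while let-7b gave -0.17 and let-7i -0.10. let-7a differs from let-7c, let-7e and let-7f at 1 position each, and from let-7i at 4, and neighbours in sequence can be read in part by each other's assay. All 9 wells are on the first card, whose median was -0.30. Relative to that, the median of the family was -0.50, let-7e was at -0.87 and let-7b and let-7i were above 0, at 0.13 and 0.20. Neither let-7e nor miR-98 passed 2-fold on that scale. With snoRNA135, the library mean or the card medians as the reference, 6 of the 9 were below 0, and the median of the family was -0.29, -0.26 and -0.29 against 0.10, 0.02 and 0.19 over all assays.

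miR-103 and miR-107, which differ at 1 position and are encoded within the spans of Pank genes, read lower together. As in let-7, each can be read in part by the other's assay, so the readings need not be independent. miR-103 had Ct 20.9 in room air and 21.2 in hyperoxia (difference -0.89), and miR-107 had Ct 24.57 and 25.002 (difference -1.03). They too are on the first card, at -0.59 and -0.73 relative to its median. miR-19b (-0.94) and miR-19a (-0.61) of the miR-17 cluster likewise share a seed and lie below the median of the card, at -0.64 and -0.31 relative to it. In the same cluster miR-20a (-0.51) and miR-92a (-0.39) were also below that median, and miR-17 (-0.26) and miR-18a (-0.17) above it. miR-19b and miR-92a are also listed in the miR-106a cluster of the X chromosome.

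In the miR-200 family all 5 members read below 0 against snoRNA202, with a median of -0.51, but with snoRNA135, the library mean or the card medians 3, 2 and 3 of them did, with medians of -0.006, 0.03 and -0.007. miR-200c had Ct 14.6 and 15.2 (difference -1.26), miR-200b -0.76, miR-141 -0.51, miR-200a -0.46 and miR-429 -0.02. On the second card a rat-annotated assay of miR-200c had Ct 13.5 and 13.7 (difference -0.05), and that of miR-200b gave 0.02. The call of miR-200c thus stands in 1 of its 2 assays. It passed under 4 of the 8 references and centrings, 2 of which give the same value for it.

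Other families lay close to the median of all assays, and the sign of their values depends on the reference: for miR-15 and miR-16 the median was -0.37 against snoRNA202 and 0.14 against snoRNA135. The miR-15 and miR-16 family, which restrains the cell cycle, had 6 members between -0.50 and -0.23. The 5 miR-30 miRNAs lay between -0.60 and -0.04, and the compared members of miR-34 and miR-449, miRNAs of p53 signalling and of multiciliated cells, between -0.52 and 0.19. miR-28 was called (Ct 19.6 and 20.1, difference -1.07), while miR-708, with the same seed, gave 0.28 and the other arm, miR-28*, gave -0.37. Of the 6 seed families with a called assay, let-7 alone held more than 1, and it was also the largest, so it had the most assays that could be called. Neither of its calls passed 2-fold with the card set on its median difference.

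**Figure D3:**
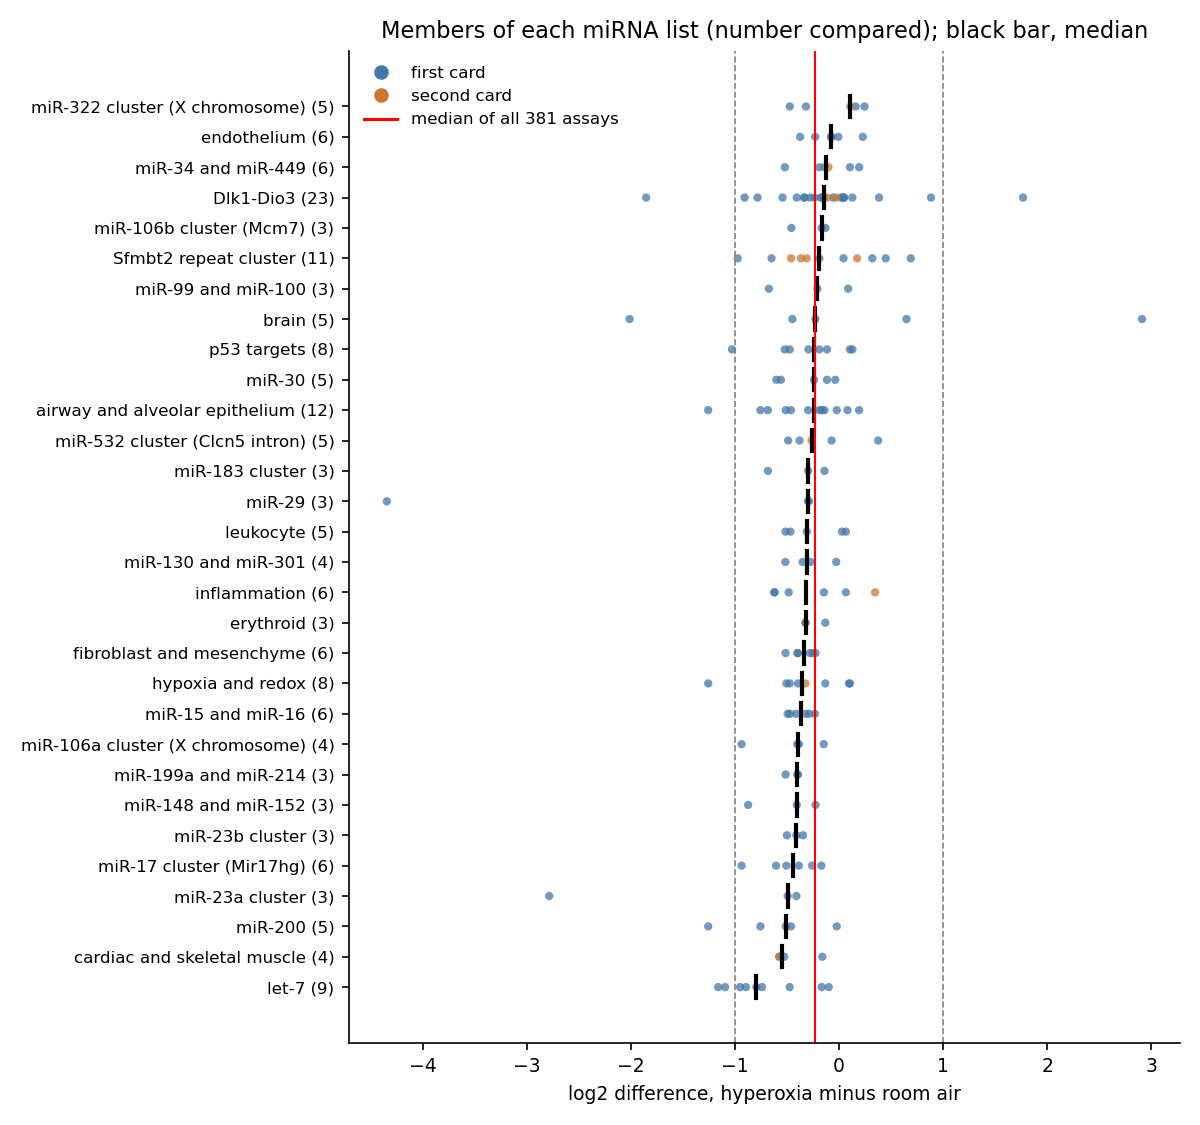
Log2 differences of the members of each list of families, clusters and markers with at least 3 compared members (number in brackets), ordered by the median, which is the black bar; colours give the card, the red line is the median of all 381 assays and dashed lines mark 2-fold. let-7 lies at the bottom with all points below 0, and miR-29b, miR-23a and miR-124 lie apart from the other members of their lists.

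The calls in genomic clusters were near the share over all assays (5.77%), with 5 among 93 assays. Of 22 clusters (hairpins of 1 strand within 10 kb) with 2 or more hairpins compared, 5 held a called assay and 0 held more than 1. The large miR-379 to miR-410 cluster on chromosome 12 had 15 assays with a median of -0.17, and miR-381 was its only call. Over the whole Dlk1-Dio3 list, 23 of 50 miRNAs were compared, with 1 higher and 1 lower and a median of -0.14. Of the rest, 12 were not detected, 8 were over the limit, 5 were in row L and 2 had no assay. In the Sfmbt2 repeat cluster 11 of 29 were compared, with none called and a median of -0.19, and miR-467c was the highest at 0.69.

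Both arms were compared for 57 hairpins. Some mature arms are made at more than 1 locus, so the paired readings need not come from 1 precursor. miR-24 is paired with both Mir24-1 and Mir24-2, and let-7c has 2 loci. The arms differed by 0.30 in the median and by 0.5 or less in 42 hairpins. In 3 hairpins 1 arm was called (Mir345, Mir28a and Mir342), and in 0 both were. Once each card was set on its median difference, the arms had the same sign in 31 of 57 and their correlation across hairpins was 0.22, a description over assays that share references.

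The largest gap belonged to Mir21a. miR-21, which rises in many forms of tissue injury and fibrosis, had Ct 16.7 and 16.6 (difference -0.49), while its other arm miR-21* had Ct 24.5 and 23.8 (difference 0.81). Mir324 was second, with miR-324-5p at -0.95 and miR-324-3p at 0.07. Mir146b showed the same order as Mir21a, with miR-146b at -0.15 and miR-146b* at 0.74. In both of these the star arm was on the second card. With each card set on its median difference the gap of Mir21a was -1.15, and Mir218-1 joined those past 1, with miR-218 at 0.53 and miR-218-1* at -0.54.

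**Figure D4:**
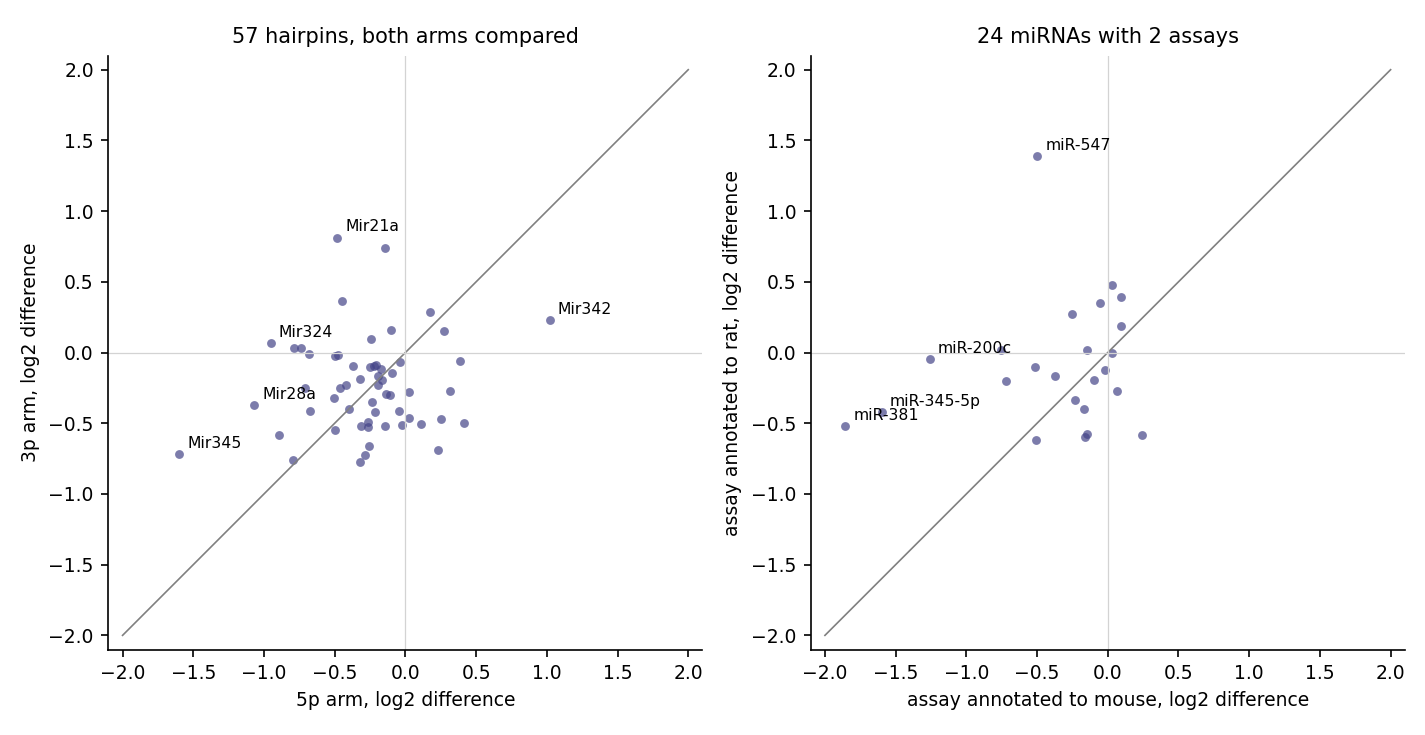
Left, the log2 differences of the 5p (horizontal) and 3p arm (vertical) of 57 hairpins; right, those of the mouse-annotated (horizontal) and rat-annotated assay (vertical) of 24 miRNAs, each with the line of equality. Named points have a gap or a difference of at least 1; no point has a call on both axes.

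A second assay was compared for 24 miRNAs, and this gave the closest thing to a repeat reading. The gaps had a median size of 0.41, or 0.29 once each card was set on its median difference, and 4 were 1 or more. Of these 24, 4 held a called assay and 0 had a call in both: miR-200c, miR-345-5p, miR-381 and miR-547. On 1 card the 9 pairs had a median gap of 0.21. Of the 14 with the mouse assay on the first card and the rat assay on the second, the mouse assay was the lower in 10. The other 18 called assays, miR-29b among them, had no second assay compared.

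Of 7 inflammation-linked miRNAs listed, 6 were compared, and none was called, where 5.77% of all assays were. Their median was -0.32, or -0.02 with each card set on its median difference. miR-146a, induced by NF-kB and a brake on Toll-like receptor signalling, had Ct 12.8 in both libraries (difference -0.62). miR-155, of activated leukocytes, gave 0.07, miR-132 gave -0.62 and miR-212, from the same locus as miR-132, gave 0.35. The seventh, miR-147, was late, at Ct 32.48 in room air and 29.8 in hyperoxia, a difference of 2.12 outside the compared set.

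Among 8 miRNAs linked to hypoxia or redox state 1 was called, the first-card assay of miR-200c, where 5.77% of all assays were. miR-210, the common target of hypoxia-inducible factors, had a difference of 0.10, and the list had a median of -0.36. Among 8 targets of p53 the 1 call was miR-107, against the same 5.77%. miR-34a, the best known of them, gave 0.10, miR-34c -0.19 and miR-192 0.13.

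Markers of the cell types of the lung also lay near the median of all assays, and most of their medians turn above 0 with snoRNA135 (0.20 for leukocytes, 0.26 for epithelium). All 6 endothelial miRNAs were compared and none was called, where 5.77% of all assays were. Their median was -0.08, from -0.38 (miR-222) to 0.23 (miR-218). The 5 leukocyte miRNAs had a median of -0.31, with miR-223 of myeloid cells at 0.03, miR-150 of lymphocytes at -0.47 and miR-142-3p at -0.52, and the 3 erythroid miRNAs ran from -0.32 to -0.13. The 6 mesenchymal miRNAs lay between -0.52 and -0.23, and miR-143 and miR-145 of smooth muscle gave -0.23 and -0.12.

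Of 12 epithelial miRNAs 1 was called, miR-200c, near the 5.77% over all assays, and the median was -0.24. miR-375 gave -0.17, miR-205 0.08 and miR-449a, of ciliated cells, 0.19. In muscle 4 of 7 were compared, with a median of -0.55 and none called. The other 3 were over the Ct limit, and all read lower in hyperoxia. miR-208a (Ct 29.956 and 30.366) gave -1.004 and miR-208b (Ct 29.991 and 30.746) gave -1.349, both past 2-fold but outside the compared set. miR-499 had Ct 32.9 in room air and 35.521 in hyperoxia. The absence of a call in this list thus depends on the Ct limit. miR-126 of endothelium, the miR-200 family of epithelium and miR-449a of ciliated cells, the defining miRNAs of lung among these lists, were all read in both adult libraries. In whole tissue, fewer cells of a type and less RNA per cell cannot be told apart.

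In all, 4 miRNAs crossed from a Ct of 30 or below in 1 adult library to above 35 in the other, and so have bounds only, taken against Ct 35. miR-330 had Ct 19.1 in room air and 36.8 in hyperoxia, at least 16.5 log2 units lower. miR-875-5p (Ct 25.6 and 35.3) was at least 9.33 lower and miR-687 (Ct 27.95 and 35.13) at least 7.64 lower, while miR-874 (Ct 40 and 26.1) was at least 8.29 higher. In the neonatal libraries miR-330 was at Ct 40 and 39.1 and miR-874 at 40 in both, so each of these was read early in 1 of 4 libraries only. miR-687 was at 35.126 in neonatal room air, the same value as in adult hyperoxia, and at 27.751 in neonatal hyperoxia. miR-875-5p was at 32.6 and 37.1 in the same order.

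A further 63 assays reached 35 at the latest in each adult library but exceeded 30 in 1 or both. Of these, 11 were higher and 17 lower by 2-fold (44.4%). They include miR-1191 and miR-1199, whose Ct values are identical in all 4 libraries. Their adult Ct was 26.6 in room air and 31.6 in hyperoxia, a difference of -4.835.

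Neonatal and adult hyperoxia can be read side by side, since those pairs share no library. Over the 358 assays within the Ct limit in all 4 libraries, 18 were called in the adult (5.03%) and 54 in the neonate (15.1%). The neonatal calls were 32 higher (8.94%) and 22 lower (6.15%), and the adult ones 4 higher (1.12%) and 14 lower (3.91%). The spread was 0.48 in the adult and 0.93 in the neonate (SD across assays), or 0.46 and 0.66 as interquartile ranges. The differences correlated at r = 0.04 (Spearman 0.06) across these assays, which share the card layout and the reference, with r = 0.24 within the first card and -0.06 within the second.

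In both ages 4 assays were called in 1 direction: miR-7a (-2.02 adult, -1.21 neonate), miR-2138 (-1.96 and -1.47), miR-1944 (1.34 and 1.09) and miR-342-5p (1.02 and 1.22). In 3 the directions were opposite. miR-423-3p gave -1.73 in the adult and 2.24 in the neonate, miR-706 gave -1.23 and 1.58, and the first-card miR-200c gave -1.26 and 1.21. miR-29b was below 0 in both, at -4.35 and -0.88, and miR-433 was unlike, at 1.77 and -0.02. Inflammation-linked miRNAs had a median of -0.32 over 6 in the adult and 0.72 over 5 in the neonate, where miR-155 was at Ct 40 in room air. let-7 had -0.80 and 0.32. The median of all 358 assays was -0.232 in the adult and 0.105 in the neonate, and the list medians are read only against these. None of these differences between the ages was tested.

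**Figure D5:**
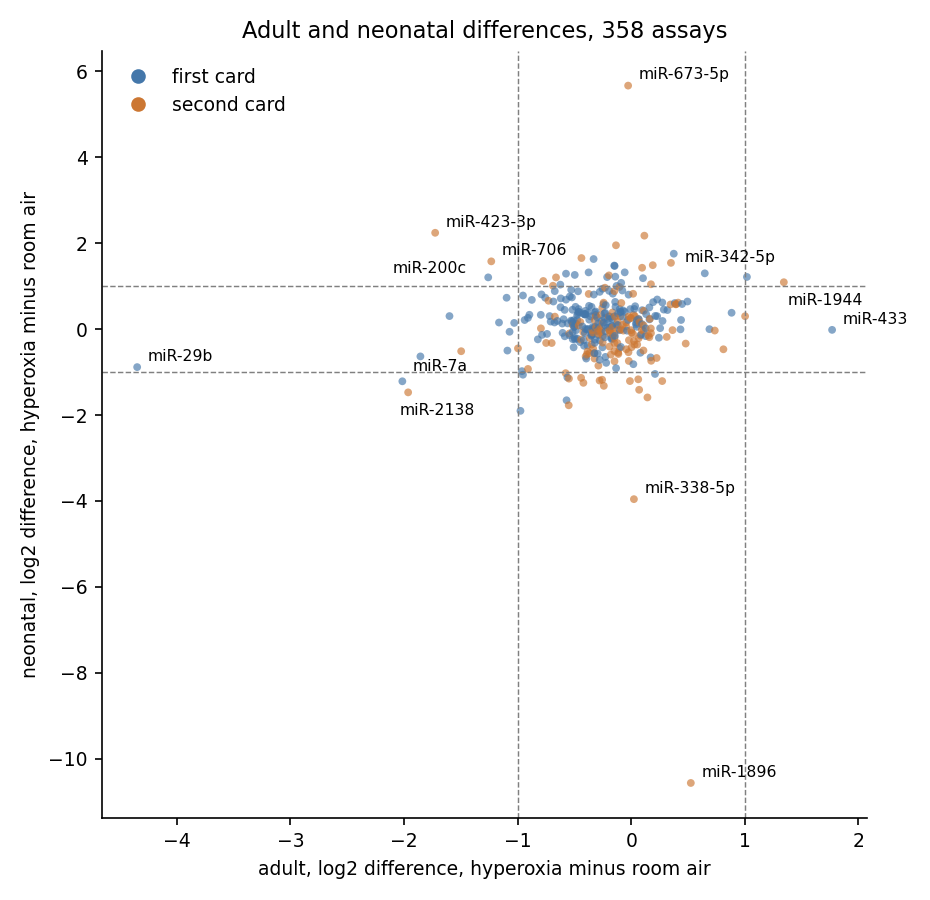
Log2 differences, hyperoxia minus room air, in the adult (horizontal) and neonatal pair (vertical) for 358 assays; colours give the card and dashed lines mark 2-fold. The cloud is wider along the neonatal axis (SD 0.93 against 0.48), with r = 0.24 over the first card and -0.06 over the second; assays called in both pairs, miR-29b, miR-433 and those with a neonatal size of 3 or more are named.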

How the data were processed

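The authors deposited Ct values and delta Ct values, both in log2 units in which less RNA gives a higher value, per the file headers; no cycler software or threshold is given in the sources used here. Total RNA was reverse transcribed with Megaplex primers, preamplified and quantified on TaqMan cards, per the labels' protocols. In the adult room air library all 384 second-card wells of the deposited delta Ct use the snoRNA202 of the first card (13.4 in place of 13.7), so differences were recomputed from Ct with each card's own snoRNA202. Groups were taken from the sample titles. Wells of row L of the first card were left out. The computation used Python 3.11.15 with pandas 2.3.3 and NumPy 2.4.6 and was tested on simulated data. No depth in reads exists for PCR, and Ct stands in its place. Named are the 15 earliest, highest and lowest assays, calls at Ct 25 or below, 1-sided assays, list members, arms that differ or are called, and controls; late assays, repeat assays and assays called in both ages were added after their values were seen. Members and lists were chosen with earlier results of these data known. Alternatives were other Ct limits, references, centrings, row L and the efficiency.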

Additional observations from a re-analysis of the deposited data

Results flagged for a closer look

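In all, 3 assays were called in opposite directions in adult and neonatal hyperoxia, each in 1 library per group, and the difference between the ages was not tested. miR-423-3p had a difference of -1.73 in the adult and 2.24 in the neonate. miR-706 had -1.23 and 1.58. The first-card assay of miR-200c had -1.26 and 1.21, and its rat-annotated second assay gave -0.05 in the adult.

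Row L of the first card, left out of every comparison, held 6 assays that read Ct 30 or earlier in adult hyperoxia and 40 in adult room air: miR-532-3p, miR-532-5p, miR-539, miR-542-3p, miR-544 and miR-551b. In the same row miR-511 had Ct 11.1 in adult room air against 26.2, 31.5 and 26.7 in the other libraries. The correlation of Ct between both adult libraries was 0.347 in this row and at least 0.869 in each other row.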

How the results depend on the processing

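The main counts were 6 higher and 16 lower, with a median of -0.23. A Ct limit of 25 gave 0 higher and 6 lower, one of 28 gave 1 higher and 11 lower, and one of 35 gave 17 and 33. snoRNA135 as the reference gave 10 and 10. Each card set on its median Ct gave 12 and 9, with a median of 0.19, and each card set on its median difference, an alternative added after seeing the data, gave 7 and 10. The deposited delta Ct, U6, the mean of snoRNA202 and snoRNA135, the mean of the library, row L kept and 1.9-fold per cycle each kept both counts within 1.5 times. No named assay with a call reversed its sign under any of these. List medians depend on the reference far more: of 30, 26 changed sign with snoRNA135, 27 with the library mean, 26 with the card medians and 9 with U6, so they are read only against the median of all assays. The number of arrays limits the precision, and the spread of differences was widest at late Ct. No paired analysis was possible because each group holds 1 library and the labels give no replicate numbers.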
